A study of Mus musculus with 6 samples.

Results

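Natural killer (NK) cells are innate lymphocytes that kill infected or transformed cells without a rearranged antigen receptor. They read signals through activating receptors such as NKp46 (the product of Ncr1) and NK1.1 (Klrb1c), which pass them on through small adaptor proteins, among them those encoded by Tyrobp (DAP12) and Fcer1g. They carry the IL-2 and IL-15 receptor beta chain (Il2rb) at rest, and cytokines that engage it drive them into the cell cycle through STAT5. A cycling lymphocyte expresses a large shared program for DNA replication and mitosis, and in a clustering by expression cycling T cells and cycling NK cells can come to lie together.

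The cells described here are 162 NK-like cells that the authors' annotation placed in its cluster of cycling T cells, named Cycling_T. They were selected on their own measured counts: a Cycling_T cell was taken when its summed UMIs (unique molecular identifiers, 1 per captured transcript) of the 5 NK genes Ncr1, Klrb1c, Klre1, Tyrobp and Fcer1g were more than its summed UMIs of the 5 T cell genes Cd3e, Cd3d, Cd3g, Trac and Trbc2. They make up 162 of the 349 Cycling_T cells and of the 2084 annotated T and NK cells of the 3 libraries, and the other 187 Cycling_T cells are called the other Cycling_T cells below. The annotation has a separate cluster of cycling NK cells, Cycling_NK, with 68 cells, and a cluster of NK cells with 795.

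The cells came from C57BL/6 mice with subcutaneous 6694c2vTRP1 tumors, derived from a mouse pancreatic cancer line, and were CD45+ tumor-infiltrating cells isolated with magnetic beads. Mice had received a short course of intraperitoneal PBS, mono-IL10 (a monomeric IL-10) or IL10/2-Trikine (an IL-10-based cytokine that in addition binds the beta chain of the IL-2 receptor). Doses were given on alternate days once tumors were established and ended days before harvest. Tumors of all groups were taken on the same day after inoculation. Each mouse of a group carried its own hashtag, and the 5 mice of a group were pooled into 1 library, so library and treatment cannot be told apart in any comparison below. No further agent or allele is given for any group. The gene features of the matrices include entries named TRP1_High and TRP1_Low, alpha and beta, which the study's methods do not explain. The study's methods give young mice of both sexes for this tumor model.

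The libraries held 30528 to 55504 barcodes and 364814102 to 515236552 gene UMIs. No annotated barcode was shared between libraries. The IL10/2-Trikine cells were the shallowest, also among the NK-like cells: their median was 3426 UMIs per cell in IL10/2-Trikine (n = 128 cells), 7830 in mono-IL10 (n = 18) and 7326.5 in PBS (n = 16). A mouse was assigned to 85 of the 162 cells. The other 77 (47.5%, Wilson 95% interval 40.0% to 55.2%) had no mouse, and these were 69 of 128 cells in IL10/2-Trikine (53.9%, 45.3% to 62.3%), 4 of 16 in PBS and 4 of 18 in mono-IL10. Cells without a mouse made up 23.9% of the other Cycling_T cells and 49.2% of the NK cells of the IL10/2-Trikine library.

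The values that chose the cells were well apart for most of them. The NK-like cells held a median of 15 NK UMIs and 0 T cell UMIs, and the other Cycling_T cells a median of 0 and 18. The NK sum was larger than the T cell sum by a median of 13 UMIs (interquartile range 9 to 20.75), and 82 of the 162 cells (50.6%) had no UMI of the 5 T cell genes. By library these were 73 of 128 cells for IL10/2-Trikine (57.0%), 7 of 16 for PBS (43.8%) and 2 of 18 for mono-IL10 (11.1%), whose NK-like cells had medians of 3426, 7326.5 and 7830 UMIs in all. Values of these genes at equal depth are given below. Near the threshold, 17 cells lay inside it by 1 to 5 UMIs, with a median of 7 NK and 2 T cell UMIs, 4 cells were tied, and 21 lay outside by 1 to 5 UMIs, with a median of 4 and 6. Of the rule's own NK genes, the 3 for receptors, Ncr1, Klrb1c and Klre1, gave a UMI in 143 of the 162 cells (88.3%) and in 11.4% of the naive T cells, a description only, since these genes chose the cells.

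**Figure D1:**
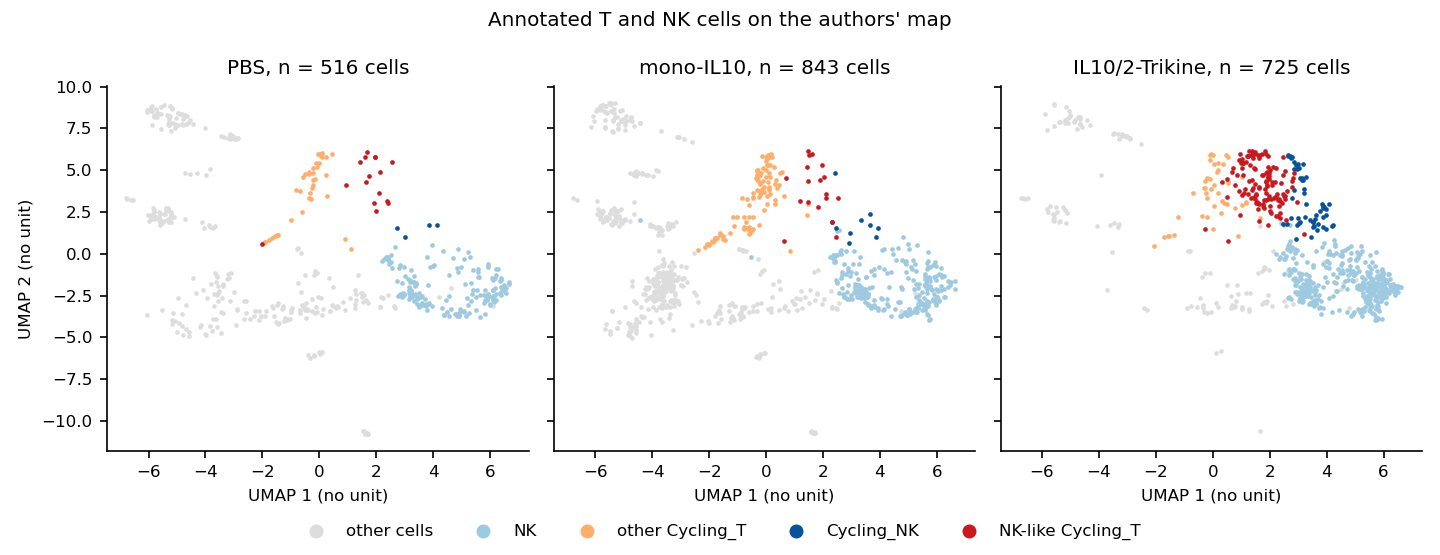
Position of each annotated cell on the authors' UMAP (both axes without unit), 1 panel per treatment library, with NK-like Cycling_T cells in red, other Cycling_T cells in orange, Cycling_NK cells in dark blue, NK cells in light blue and all other T cells in grey. The red cells form a patch between the orange and the dark blue cells in every library, sparse in PBS (16 cells) and mono-IL10 (18 cells) and dense in IL10/2-Trikine (128 cells).

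On the authors' map the NK-like cells lay mostly among themselves. Of the 15 nearest neighbours of an NK-like cell, an average of 85.0% were NK-like cells, 8.35% other Cycling_T cells, 5.19% Cycling_NK cells and 1.19% NK cells. Of the neighbours of a Cycling_NK cell, 74.6% were Cycling_NK cells and 18.0% NK-like cells, and of the neighbours of another Cycling_T cell 7.13% were NK-like cells. In the finer clustering deposited with the annotation, cluster 3 held 146 of the 162 NK-like cells (90.1%), 65.8% of the other Cycling_T cells and 30.9% of the Cycling_NK cells, while 63.2% of the Cycling_NK cells were in cluster 2 with 56.0% of the NK cells. These are descriptions, since the clusters and the map were built from the same genes.

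Beyond the genes that chose them, the cells carried receptors of NK cells and held fewer transcripts of T cell genes than the other Cycling_T cells. Klra4, Klra8, Klri2, Klrb1b and Klrb1f are named because their ratio to the other Cycling_T cells was among the highest of 4971 genes. Klrd1 (CD94, the partner chain of the NKG2 receptors) was seen in 88.9% of the NK-like cells, 88.2% of the Cycling_NK cells and 54.0% of the other Cycling_T cells. Klra4 and Klra8, which encode the Ly49D and Ly49H receptors, were seen in 25.3% and 21.0% of the NK-like cells and in none of the 187 other Cycling_T cells, a count that allows a share of cells with a UMI of up to 1.60%. Reads of the Klra genes, a family of near-identical copies, may be divided between members. Klri2 (29.6% against 0%), Klrb1b (40.7% against 1.07%) and Klrb1f (32.1% against 2.14%), all of the same lectin-like receptor family, followed the same pattern. Irf8, a transcription factor of myeloid cells that NK cells also use, was seen in 77.8% of the NK-like cells and 17.1% of the other Cycling_T cells.

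T cell genes that the rule did not use were lower in sum, as given below, and some were near 0. Cd8b1, Themis, Cd5 and Bcl11b are named because their ratio to the other Cycling_T cells was among the lowest of 4971 genes. Cd8b1, the beta chain of the CD8 co-receptor, was seen in 1 of 162 NK-like cells (0.617%) against 70.1% of the other Cycling_T cells, and Themis, a thymocyte signaling gene, likewise in 0.617% against 71.1%. In PBS, mono-IL10 and IL10/2-Trikine the other Cycling_T cells gave 69.2%, 85.3% and 37.0% for Cd8b1 and 74.4%, 82.4% and 43.5% for Themis. IL10/2-Trikine supplied 128 of the 162 NK-like cells but 46 of the 187 other Cycling_T cells, so pooled shares, here and above, hold kind and treatment together. Cd5, a receptor that dampens T cell receptor signals, had 0 UMIs in the NK-like cells and 116 in the other Cycling_T cells. Bcl11b, a transcription factor of T cell commitment, had 2 UMIs against 156. Pdcd1 (PD-1) was seen in 9.26% of the NK-like cells, 52.4% of the other Cycling_T cells, 7.17% of the NK cells and none of the Cycling_NK cells.

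**Figure D2:**
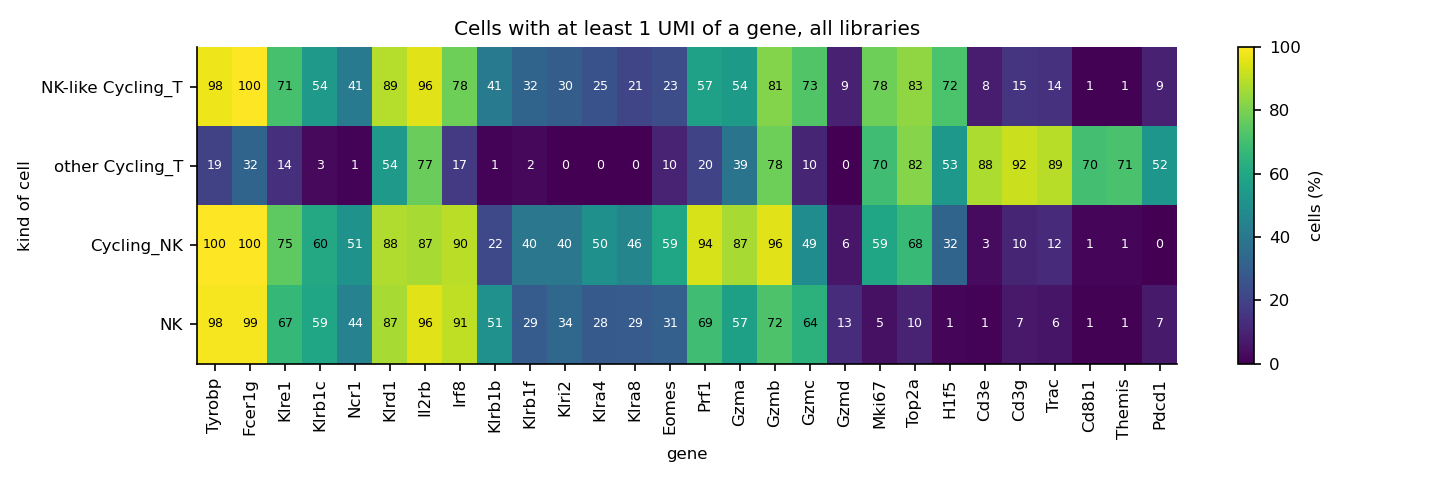
Percent of cells with at least 1 UMI of a gene (color and printed value), for 28 genes (horizontal) and 4 kinds of cell (vertical) over the 3 libraries together. The kinds differ in their mix of libraries, so the pooled values hold kind and treatment together. The genes of the rule are shown as a description, since they chose the cells. Outside the rule, Irf8 (77.8% of the NK-like cells), Klrd1 (88.9%) and Cd8b1 (0.617%) lie nearer to the Cycling_NK row than to the other Cycling_T row.

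Gene lists were also summed within each library. The 25 NK receptor and adaptor genes outside the rule summed to 35.7, 38.5 and 35.9 UMIs per 10000 in the NK-like cells of PBS, mono-IL10 and IL10/2-Trikine, and to 16.7, 18.2 and 23.9 in the other Cycling_T cells. The 24 T cell genes outside the rule summed to 22.6, 21.7 and 20.4 in the NK-like cells, close to the 23.2 of the NK cells, and to 56.3, 60.6 and 39.9 in the other Cycling_T cells. The 17 cytotoxic effector genes summed to 142.8 in the NK-like cells, 77.4 in the other Cycling_T cells, 159.6 in the Cycling_NK cells and 206.3 in the NK cells. The order of the NK-like and Cycling_NK cells differed by library, with 137.9 against 91.7 in PBS, 166.3 against 145.9 in mono-IL10 and 135.4 against 177.4 in IL10/2-Trikine. Among these genes, Gzmc was seen in 72.8% of the NK-like cells and in 10.2% of the other Cycling_T cells, while Gzmb, which activated T cells share, was seen in 81.5% and 78.1%.

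Shares of cells with a UMI depend on depth, so each cell was also thinned to 1500 UMIs, which no cell fell short of in these 3 kinds. Of genes outside the rule, Irf8 was then seen in 53.1% of the NK-like cells, 66.2% of the Cycling_NK cells and 9.09% of the other Cycling_T cells, and Klri2 in 17.9%, 14.7% and 0%. Cd8b1, a chain of the CD8 coreceptor, was seen in 0.617%, 1.47% and 49.2%. The rule's T cell genes still differed by library in the thinned NK-like cells. In mono-IL10, PBS and IL10/2-Trikine, Cd3e was seen in 22.2%, 6.25% and 3.13% and Cd3d in 22.2%, 6.25% and 3.91%. Cd3g was seen in 16.7%, 18.75% and 7.81% and Trac in 11.1%, 18.75% and 2.34%. Trbc2 did not follow, with 16.7%, 12.5% and 17.2%. The rule was applied again to the thinned counts: 15 of 16 NK-like cells in PBS, 17 of 18 in mono-IL10 and 125 of 128 in IL10/2-Trikine still had more NK than T cell UMIs, while 2 of 39, 2 of 102 and 3 of 46 other Cycling_T cells came to meet it.

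Genes of the cell cycle are given as a description, since the cells were clustered on them. Mki67 (the proliferation antigen Ki-67) was seen in 77.8% of the NK-like cells, 69.5% of the other Cycling_T cells, 58.8% of the Cycling_NK cells and 4.65% of the NK cells. Top2a, the topoisomerase that untangles replicated chromosomes, followed with 83.3%, 81.8%, 67.6% and 10.1%. Summed over 44 genes of S phase, the NK-like cells held 52.2 UMIs per 10000 UMIs, near the 52.9 of the other Cycling_T cells and the 51.1 of the Cycling_NK cells, and above the 12.9 of the NK cells.

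Sums of the later phases were higher in the NK-like than in the Cycling_NK cells. Summed over 54 genes of the G2 and M phases, the NK-like cells held 132.1 UMIs per 10000, the other Cycling_T cells 131.1, the Cycling_NK cells 71.1 and the NK cells 18.7. More G2M than S phase UMIs were found in 78.4% of the NK-like cells, 78.1% of the other Cycling_T cells and 50% of the Cycling_NK cells. Among the genes of this phase, Birc5 (survivin, of the chromosomal passenger complex) was seen in 64.8% of the NK-like and 19.1% of the Cycling_NK cells, and Kif11, a spindle motor, in 64.8% and 30.9%. The difference was seen in each library. It was widest in PBS, with 125.7 against 33.3 G2M UMIs per 10000 (16 and 4 cells), and narrowest in IL10/2-Trikine, with 137.5 against 90.7 (128 and 54 cells), with 122.1 against 49.1 in mono-IL10. Per mouse, the G2M sum of the NK-like cells ranged from 91.7 to 176.6 in PBS, 54.9 to 179.1 in mono-IL10 and 111.1 to 153.0 in IL10/2-Trikine, and the S phase sum from 22.8 to 91.7, 43.1 to 67.9 and 50.4 to 63.6, so the treatments overlapped. These phases were among the genes on which the cells were clustered, and no test was made.

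**Figure D3:**
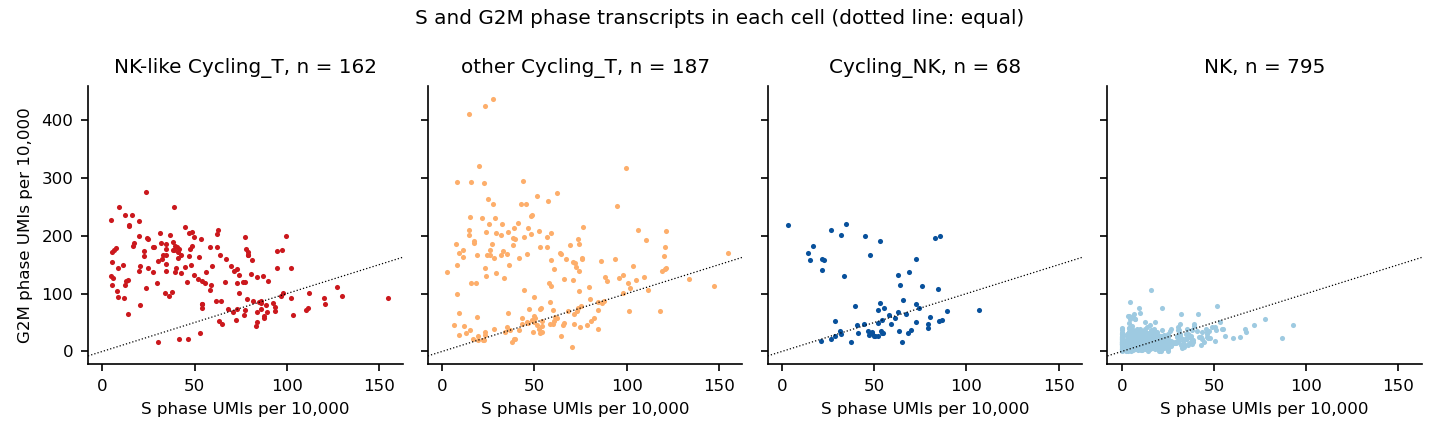
S phase UMIs per 10000 UMIs (horizontal) against G2M phase UMIs per 10000 UMIs (vertical) of each cell, 1 panel per kind of cell, with a dotted line where both are equal. Most NK-like cells (78.4%) and other Cycling_T cells (78.1%) lie above the line, 50% of the Cycling_NK cells do, and NK cells lie near the origin.

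Within the IL10/2-Trikine library, where both kinds are most numerous, the NK-like cells differed from the Cycling_NK cells in effector and adhesion genes as well. Gzmc (granzyme C) stood at 36.0 UMIs per 10000 against 10.9, Xcl1 (a chemokine that attracts cross-presenting dendritic cells) at 15.8 against 5.19, Itga1 (the integrin CD49a, found on tissue-resident lymphocytes) at 1.55 against 0.442, and Rora (a nuclear receptor of innate lymphoid cells) at 1.62 against 0.387. Lower in the NK-like cells were Gzma (24.6 against 68.9), Ccl5 (5.23 against 26.5), Ccl4 (5.94 against 15.6), Eomes (a transcription factor of NK cell maturation, 0.821 against 2.49) and Klra4 (1.73 against 4.58). The 13 genes listed for innate lymphoid cells of types 1 and 2 summed to 7.50 UMIs per 10000 in the NK-like cells, 2.04 in Cycling_NK, 8.27 in NK and 7.19 in the other Cycling_T cells of this library. These differences are those of 1 library. The levels of Itga1, Rora, Gzmc and Eomes lay the same way in all 3 libraries, but Gzmc was seen in a larger share of the NK-like cells only in IL10/2-Trikine (71.9% against 37.0%), with 81.3% against 100% in PBS and 72.2% against 90% in mono-IL10. Xcl1 lay the other way in mono-IL10 (21.4 against 34.3) and PBS (19.3 against 43.2), and Klra4 and Ccl4 did in mono-IL10 (Klra4 at 2.93 against 0.412 and Ccl4 at 1.08 against 0.329). The ratio was highest for the heat shock gene Hspa1b (3.11 against 0.110, in 21.9% and 1.85% of the cells), followed by the phosphatase gene Inpp4b (2.57 against 0.221, in 45.3% and 5.56%) and the heat shock gene Hspa1a (1.51 against 0.221, in 11.7% and 5.56%).

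Transcripts of other lineages were low over the cells together. Of 12 macrophage and monocyte markers 11 had a UMI, and their sum per 10000 UMIs was 9.38 in the PBS library, 7.29 in the mono-IL10 library and 8.61 in the IL10/2-Trikine library, mostly from Spp1 and Apoe, with 1 UMI of Csf1r and 0 of Adgre1 in all 162 cells. The sum was 6.95 in the other Cycling_T cells and 12.1 in the NK cells. B cell markers summed to at most 0.0665 UMIs per 10000 and dendritic cell markers to 0. The 5 gamma-delta T cell genes summed to 1.04. Per mouse they reached 8.26 in the highest PBS mouse, beside 0.841 in the median PBS mouse. The highest mono-IL10 mouse stood at 2.94 and the highest IL10/2-Trikine mouse at 1.73. The 5 T cell genes of the rule likewise reached 14.2 in the highest PBS mouse, beside 2.00 in the median one. An exception among single cells was 1 PBS cell, of mouse 4, which held 238 UMIs of Mcpt1, 192 of Mcpt2 and 98 of Tpsb2, all mast cell proteases, among 7785 UMIs. It entered through Fcer1g (14 UMIs) and Tyrobp (8), with 1 UMI of Klre1 and 0 of Ncr1 and Klrb1c, and it held 8 UMIs of Mki67. The shares and calls below are given with it, and no share call changed without it.

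The treatment comparison asked what share of the recovered cells of each mouse these cells made up, with the mouse as the replicate. No count of cells per tumor was made. The make-up of the denominators differed by library: naive T cells were 73 of 516 annotated cells in PBS, 221 of 843 in mono-IL10 and 4 of 725 in IL10/2-Trikine. NK-like cells made up most of the Cycling_T cluster after IL10/2-Trikine and a minority of it otherwise. Over all cells they were 128 of 174 Cycling_T cells in IL10/2-Trikine (73.6%), 16 of 55 in PBS (29.1%) and 18 of 120 in mono-IL10 (15%). Per mouse, the share was 76.5%, 60%, 66.7%, 70% and 50% in IL10/2-Trikine, and 28.6%, 33.3%, 25%, 18.2% and 40% in PBS. It was 8.57%, 11.1%, 17.9% and 21.4% in the 4 mono-IL10 mice with at least 5 Cycling_T cells. Each IL10/2-Trikine mouse lay above every mouse of the other groups.

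The IL10/2-Trikine mice had a mean share of 64.6% ± 10.1 (SD, n = 5), the PBS mice one of 29.0% ± 8.26 (SD, n = 5) and the mono-IL10 mice one of 14.7% ± 5.94 (SD, n = 4). The difference of 35.6 points between IL10/2-Trikine and PBS had an exact two-sided permutation p of 0.00794, the smallest that 5 against 5 mice allow, and an adjusted p of 0.0265 over the 10 tests of cell numbers and depth made in 12 comparisons. The difference of 49.9 points from mono-IL10 had an exact permutation p of 0.0159, the smallest for 5 against 4, and an adjusted p of 0.0397. The mono-IL10 share was 14.3 points below PBS, with an exact permutation p of 0.0317 and an adjusted p of 0.0595, which misses the threshold of 0.05. With Tyrobp and Fcer1g left out of the NK sum, so that Klrb1c, Ncr1 and Klre1 alone had to outnumber the T cell genes, the difference from PBS was 16.7 points (exact permutation, adjusted p 0.171).

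As a share of all annotated T and NK cells of a mouse, the NK-like cells were 19.4%, 15.7%, 17.4%, 14.6% and 9.52% in IL10/2-Trikine. They were 3.33%, 6.25%, 2.82%, 1.79% and 4.88% in PBS and 1.70%, 1.74%, 2.86%, 2.33% and 3.19% in mono-IL10. No IL10/2-Trikine mouse overlapped with another group. The means were 15.3% ± 3.72 (SD, n = 5), 3.81% ± 1.76 (SD, n = 5) and 2.36% ± 0.662 (SD, n = 5). IL10/2-Trikine was 11.5 points above PBS and 12.95 points above mono-IL10 (p 0.00794 by exact permutation, adjusted to 0.0265, in both cases). With only cells of at least 2000 detected genes, of which 2 to 9 remained in an IL10/2-Trikine mouse, the difference from PBS was 3.46 points and that from mono-IL10 16.3 points, with mice 3 and 4 at 0%, and neither passed (exact permutation, adjusted p 0.873 and 0.648). Mono-IL10 and PBS differed by -1.45 points (exact permutation p 0.119, adjusted p 0.170).

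The remainder of the cluster was spread otherwise. The other Cycling_T cells made up 5.97% to 10.4% of the annotated cells of an IL10/2-Trikine mouse, 7.32% to 12.5% of a PBS mouse and 8.57% to 18.2% of a mono-IL10 mouse, and these ranges overlapped. The same rule applied to other clusters was met by 42 of 53 gdT/NKT cells in IL10/2-Trikine, 34 of 78 in PBS and 41 of 75 in mono-IL10, by 99.2% to 99.7% of NK cells and by none of the 32 Cycling_Treg cells. Among T cell clusters it was met by 3 of 24 Treg cells in IL10/2-Trikine (12.5%), 1 of 51 in PBS and 2 of 52 in mono-IL10, and by 5 of 28 act_CD4T cells (17.9%), 1 of 56 and 0 of 88. The share of cells that met the rule was thus higher in IL10/2-Trikine in these clusters too, in few cells, and its part in the share of the Cycling_T cluster was not tested.

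**Figure D4:**
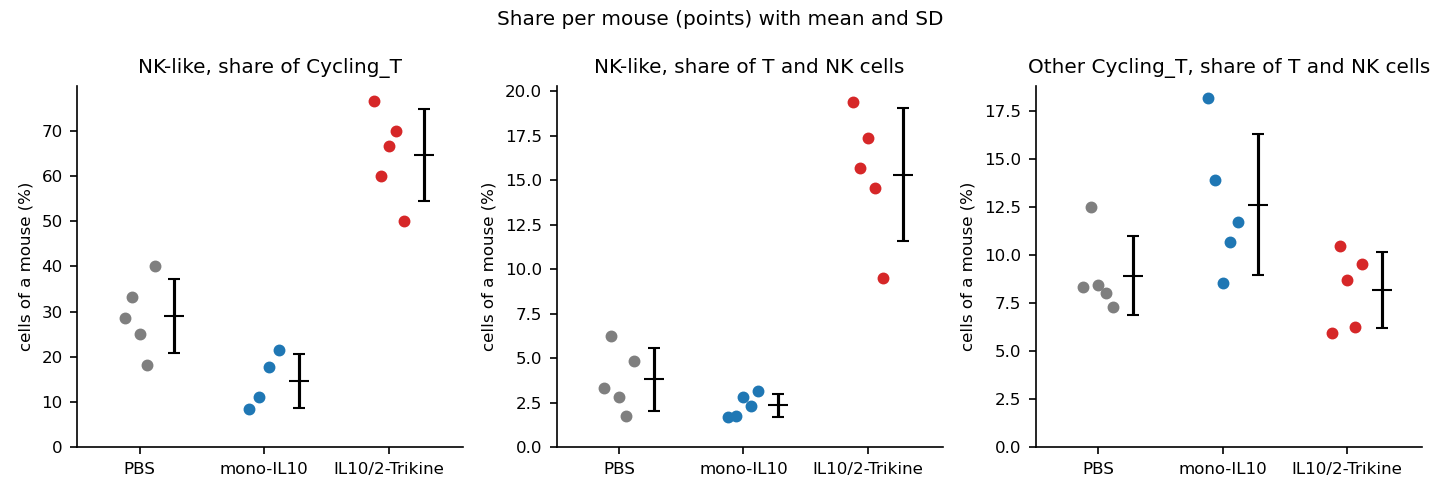
NK-like Cycling_T cells as percent of the Cycling_T cells (left) and of all annotated T and NK cells (middle) of each mouse, and other Cycling_T cells as percent of all annotated cells (right), with points for mice and a bar for the mean and SD of the group. In the left and middle panels the 5 IL10/2-Trikine mice (means 64.6% and 15.3%) lie above all others, and in the right panel the groups overlap.

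How the NK-type cycling cells were divided between the Cycling_T and Cycling_NK clusters did not differ past the threshold. The NK-like Cycling_T cells were 64.9% ± 12.2 (SD, n = 5) of both together in IL10/2-Trikine mice, while PBS mice held 72.2% ± 25.5 (SD, n = 3) and mono-IL10 mice 60.3% ± 22.1 (SD, n = 4), over mice with at least 3 such cells. Compared with PBS, the IL10/2-Trikine mice gave an exact permutation p of 0.607, and compared with mono-IL10 one of 0.698, with adjusted p of 0.675 and 0.698. With 5 against 3 mice the smallest possible p is 0.0357, which could not have passed beside the other tests, so the comparison with PBS cannot decide. The depth per cell was lower in the IL10/2-Trikine mice without passing the threshold: the mean log2 UMIs per NK-like cell was 11.71 ± 0.0995 (SD, n = 5) for IL10/2-Trikine mice and 12.96 ± 0.199 (SD, n = 3) for mono-IL10 mice, a difference of -1.26 (exact permutation p 0.0357, the smallest possible, adjusted p 0.0595). In PBS 1 mouse had at least 3 cells, at 13.11. With every cell thinned to 1500 UMIs, the share of the cluster in IL10/2-Trikine was 34.2 points above PBS and 51.5 above mono-IL10 (exact permutation, adjusted p 0.0317 and 0.0381). With only cells of at least 2000 detected genes, 15 of 128 NK-like cells remained in IL10/2-Trikine, 14 of 16 in PBS and 18 of 18 in mono-IL10. No share comparison with IL10/2-Trikine then passed the threshold. The share of the cluster was 80% and 62.5% in 2 IL10/2-Trikine mice and 40% to 50% in 3 PBS mice (27.9 points, exact permutation, adjusted p 0.4). In mono-IL10 it was 10.3% to 27.3%. So few mice allow no p under the threshold, so this setting cannot decide on the share of the cluster.

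Gene expression of the NK-like cells was compared between treatments on counts summed per mouse, with edgeR's quasi-likelihood test and Benjamini-Hochberg adjustment over all genes tested. A mouse needed at least 3 NK-like cells, which left 5 mice in IL10/2-Trikine, 3 in mono-IL10 and 1 in PBS, so a comparison with PBS rests on the 4 cells of PBS mouse 2, which the fit assumes to vary like the mice of the other groups. Values from it are given as a description of that mouse. Within mice with at least 1 NK-like cell the fit compared 5 mice with 5, many of them with 1 to 3 cells. Of 2902 genes, 10 (0.345%) differed between IL10/2-Trikine and mono-IL10, 1 higher (0.0345%) and 9 lower (0.31%), and 201 had an unadjusted p under 0.05.

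The gene that was higher was Cdk8, the kinase of the Mediator complex that couples transcription factors to RNA polymerase II. It stood at 20.8, 22.5, 19.6, 21.6 and 14.3 UMIs per 10000 in the 5 IL10/2-Trikine mice, at 5.46, 5.11, 19.3, 6.07 and 3.66 in mono-IL10 and at 9.25, 9.31, 10.3, 8.85 and 3 in PBS. Only mono-IL10 mouse 3, with 1 NK-like cell, reached into the IL10/2-Trikine range. The log2 difference from mono-IL10 was 1.85 ± 0.236 (SE; adjusted p 1.46e-06 by edgeR's quasi-likelihood test), and it stayed past the threshold in each of 18 alternatives, with an adjusted p of at most 0.000548. With all mice that held an NK-like cell it was 1.37 from mono-IL10 and 1.41 from PBS (edgeR adjusted p 0.000287 and 0.000155). With PBS mouse 2 as the only PBS mouse, the difference of 0.98 from PBS did not pass (edgeR adjusted p 0.351). Summed over each library, Cdk8 stood at 25.6, 10.2 and 7.05 UMIs per 10000 in the NK-like cells of IL10/2-Trikine, PBS and mono-IL10. The other Cycling_T cells had the same order at lower levels, with 11, 8.30 and 6.45. The NK cells did not, with 25.9, 31.0 and 19.8, nor did the Cycling_NK cells, with 11, 7.35 and 16.7. The test of whether the difference from mono-IL10 was larger in the NK-like than in the other Cycling_T cells gave 1.56 ± 0.473 (SE) on the log2 scale and did not pass (edgeR adjusted p 0.312).

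The genes that were lower than in mono-IL10 included surface molecules of lymphocytes. Cd7, an immunoglobulin-family receptor of T and NK cells, stood at 1.59, 0.681, 0.377, 1.30 and 2.24 UMIs per 10000 in IL10/2-Trikine and at 5.88, 6.51, 0, 9.50 and 1.37 in mono-IL10 (log2 -2.38 ± 0.468 SE, edgeR adjusted p 0.0137). Ms4a4b, a membrane protein of T and NK cells, stood at 1.79, 1.77, 3.02, 2.16 and 2.52 in IL10/2-Trikine and at 6.30, 8.83, 1.42, 5.26 and 10.1 in mono-IL10 (log2 -1.72 ± 0.336 SE, edgeR adjusted p 0.00832). For both, mono-IL10 mouse 3 lay at or below the IL10/2-Trikine mice, and for Cd7 mouse 5 lay among them. Cd7 and Ms4a4b were also called with all mice (log2 -1.99 and -1.49, edgeR adjusted p 0.00353 and 0.0427), but with cells thinned to 1 depth Ms4a4b was at 0.06. Rgs1, a brake on chemokine receptor signals, was at 6.15 to 9.95 in IL10/2-Trikine and at 24.3, 9.76, 1.89, 10.9 and 22 in mono-IL10 (log2 -1.13 ± 0.230 SE, edgeR adjusted p 0.00871). It was past the threshold in 8 of 18 alternatives, Cd7 in 11 and Ms4a4b in 13. The rule's T cell genes summed to 0.472 to 10.7 UMIs per 10000 in the mono-IL10 mice (median 7.98). In the IL10/2-Trikine mice they summed to 2.16 to 5.32 (median 4.36). The T cell genes outside the rule had medians of 21.8 and 21.9. The part of T cell transcripts in these differences was not tested.

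Of the other genes that were lower, Sqstm1, the autophagy receptor p62, differed by -1.76 on the log2 scale (edgeR adjusted p 0.0256). The differences were smaller for the ribosomal protein gene Rps7 (-0.68), Tpt1 (-0.63), B2m (-0.61, the light chain of MHC class I) and Fth1 (-0.85, ferritin heavy chain). These calls depended on the processing: Sqstm1 passed in 4 of 17 alternatives, Fth1 in 5, Rps7 in 6, B2m in 8 and Tpt1 in 9 of 18. Tpt1, B2m and Fth1 had the same order in the NK cells as a whole, where B2m stood at 33.9 UMIs per 10000 in IL10/2-Trikine and 44.6 in mono-IL10, Fth1 at 15.4 and 22.9, and Tpt1 at 41.2 and 59.5.

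**Figure D5:**
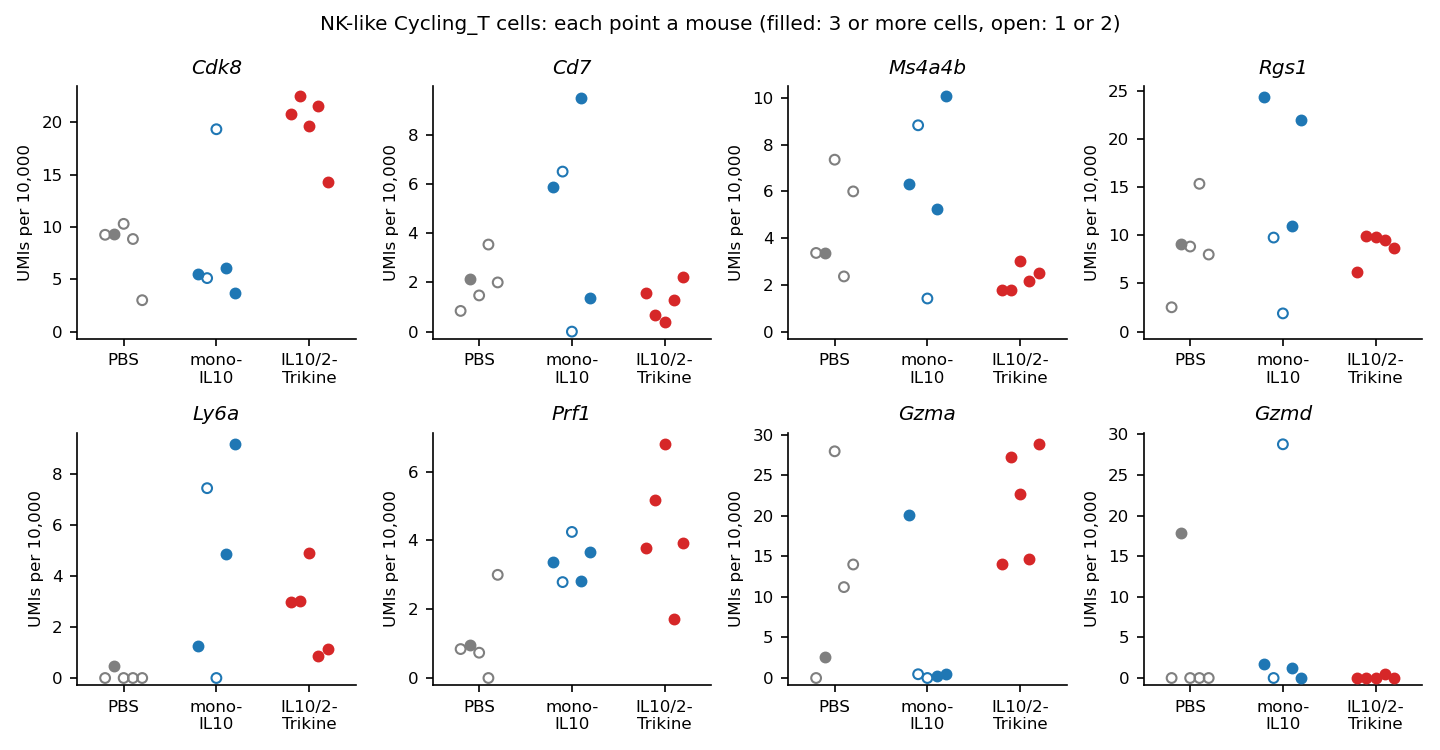
UMIs per 10000 UMIs of 8 genes in the NK-like Cycling_T cells of each mouse, by treatment, with filled points for mice with at least 3 such cells and open points for mice with 1 or 2. Cdk8 is above 14 in all 5 IL10/2-Trikine mice and below 11 in all others but mono-IL10 mouse 3 (19.3, 1 cell), and Gzmd is carried by PBS mouse 2 (17.9) and mono-IL10 mouse 3 (28.8).

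Against PBS mouse 2 the fit called 6 of 2902 genes (0.207%), all lower in IL10/2-Trikine, and 239 had an unadjusted p under 0.05. They were the granzyme genes Gzmd and Gzme, Ifitm2, Emb, H2-Eb1 and Tnfrsf9. Gzmd and Gzme were held by 9.26% and 8.64% of the NK-like cells. Gzmd stood at 17.9 UMIs per 10000 in PBS mouse 2 and at 0 in the other 4 PBS mice, and at 28.8 in mono-IL10 mouse 3 and at most 1.68 in the other mono-IL10 mice. In IL10/2-Trikine it was at 0.432 in mouse 4 and 0 in the others. The fitted differences of Gzmd and Gzme, near-identical neighbours whose reads may be divided, thus describe PBS mouse 2 rather than the PBS group. Emb (embigin, an adhesion protein of immature NK cells) stood at 11.8, 21.7, 5.89, 2.36 and 13.0 in PBS and at 4.15 to 7.55 in IL10/2-Trikine, so the groups overlapped. Its log2 difference from mouse 2, the highest of the PBS mice, was -1.82. Mono-IL10 against mouse 2 gave 4 of 2902 genes (0.138%), all lower, namely Gzmd, Gzme, Emb (-1.77) and Irf8 (-1.77), and 190 had an unadjusted p under 0.05. With all mice none of these 4 genes was called. The next in order of p did not pass (edgeR adjusted p 0.0816 for Camk4, on the lower side, and 0.179 to 0.511 for Gimap6, Uba1, Sqstm1, Mcm7 and the unnamed gene ENSMUSG00000121360, on the higher side).

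With all mice that held an NK-like cell, 8 of 3567 genes (0.224%) differed between IL10/2-Trikine and PBS, 7 higher (0.196%) and 1 lower (0.028%). None of the 6 genes above was among them. Of the higher genes, Prf1 encodes perforin, the pore former of killer cells, and Ly6a the surface antigen Sca-1. Prf1 stood at 3.77, 5.18, 6.79, 1.73 and 3.92 UMIs per 10000 in IL10/2-Trikine, at 0.841, 0.955, 0.736, 0 and 3 in PBS and at 2.79 to 4.25 in mono-IL10. Of the PBS mice, 4 lay below every mouse of the other groups and mouse 5 lay among them. The log2 difference from PBS was 2.28 ± 0.494 (SE; edgeR adjusted p 0.00284).

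Ly6a was at 0 in 4 PBS mice and 0.478 in mouse 2, against 2.98, 3, 4.91, 0.864 and 1.12 in IL10/2-Trikine and 1.26, 7.44, 0, 4.85 and 9.15 in mono-IL10. It differed from PBS after both treatments (log2 3.55 ± 0.722 SE and 4.31 ± 0.686 SE, edgeR adjusted p 0.00101 and 2.44e-06). In the NK cells PBS was also the lowest library for Ly6a, with 0.354 UMIs per 10000 beside 2.98 for mono-IL10 and 3.37 for IL10/2-Trikine, and for Prf1, with 3.10 beside 7.39 and 8.09. Il31ra, a cytokine receptor subunit, was also higher after both (log2 1.68 ± 0.330 SE in IL10/2-Trikine and 1.62 ± 0.336 SE in mono-IL10, edgeR adjusted p 0.000449 and 0.00287). Its range was 6.40 to 17.9 in IL10/2-Trikine, 0.736 to 5.02 in PBS and 3.36 to 17.0 in mono-IL10, so mono-IL10 overlapped with PBS in its lowest mouse. Together Ly6a and Il31ra were the 2 of 3567 genes (0.0561%) called between mono-IL10 and PBS.

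The remaining genes of the IL10/2-Trikine and PBS comparison were Cdk8, Actb, the linker histone gene H1f5, Cmss1 and, lower, Sema6d (log2 -2.16 ± 0.513 SE, edgeR adjusted p 0.0147), a semaphorin. Actb, which encodes the cytoskeletal beta-actin, was 0.90 higher on the log2 scale, and it was also higher in IL10/2-Trikine than in PBS in the NK cells (70.8 against 32.3 UMIs per 10000) and the other Cycling_T cells (80.1 against 47.0). H1f5 was 1.83 ± 0.425 (SE) higher, at 5.32 to 9.53 in IL10/2-Trikine and 0 to 7.67 in PBS. Cmss1 was not past the threshold without the mast cell protease cell (edgeR adjusted p 0.192). Against mono-IL10 the same fit called 5 of 3567 genes (0.14%), with Cdk8 and Ccnb1ip1 higher (0.0561%) and Cd7, Ms4a4b and Dscam lower (0.0841%). The size of several differences depended on which mice were fitted: against PBS mouse 2 alone, that of IL10/2-Trikine was 0.15 for Actb, 0.92 for Il31ra, 2.29 for Ly6a and 0.95 for Cmss1, and that of mono-IL10 was 0.50 for Il31ra, none of them past the threshold. With mice of at least 3 cells Dscam was at -1.14 against mono-IL10 and did not pass. Ccnb1ip1 rests on 20 UMIs in IL10/2-Trikine mouse 2 and 4 or fewer in any other mouse.

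Of the 10 genes the study used as STAT5 targets, a list it took from the literature and which holds the rule's Klrb1c, all 10 were fitted and 0 passed in any comparison with mice of at least 3 cells, where the list median was 1.75 in IL10/2-Trikine against PBS, -0.06 against mono-IL10 and 1.39 in mono-IL10 against PBS, beside 0.03 in both comparisons of IL10/2-Trikine over all genes. With all mice, 2 were higher in IL10/2-Trikine than in PBS (Ly6a and Prf1) and 1 in mono-IL10 (Ly6a), beside 0.196% and 0.0561% of all genes that were higher. The list median was 0.89 and 0.45 beside 0.23 and 0.11 over all genes, with 10 and 9 of the 10 genes above 0. In IL10/2-Trikine against mono-IL10 it was 0.16 beside 0.11 over all genes, with 7 of the 10 genes above 0 and 0 called. Summed over libraries, the list stood at 43.8, 57.5 and 82.0 UMIs per 10000 in the NK-like cells of PBS, mono-IL10 and IL10/2-Trikine, at 55.6, 94.8 and 116.7 in the NK cells and at 63.6, 69.3 and 159.2 in the Cycling_NK cells. Its sum per mouse in the NK-like cells was 47.9 to 97.8 UMIs per 10000 in IL10/2-Trikine, 33.0 to 82.3 in mono-IL10 and 30.8 to 65.0 in PBS, so the groups overlapped. Gzma, one of them, stood at 14.1, 27.3, 22.6, 14.7 and 28.8 in IL10/2-Trikine, at 0, 2.63, 28, 11.2 and 14.0 in PBS and at 20.1, 0.465, 0, 0.202 and 0.458 in mono-IL10, and it did not pass the test.

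Calls in the other gene groups were all against PBS, and so against the single PBS mouse in that fit, mouse 2. They were 2 of the 14 fitted of 17 cytotoxic effector genes (Gzmd and Gzme, after both treatments), 1 of the 3 fitted of 10 NK maturation genes (Emb, after both), 1 of the 7 fitted of 12 checkpoint receptors (Tnfrsf9, the costimulator 4-1BB, -1.99 after IL10/2-Trikine) and 1 of the 12 fitted of 14 NK transcription factors (Irf8, after mono-IL10), beside 0.207% of all genes after IL10/2-Trikine and 0.138% after mono-IL10. These counts describe mouse 2 and were read no further. Mouse 2 was the highest PBS mouse for each of these 5 genes, with Tnfrsf9 at 4.21, 9.79, 3.68, 1.18 and 4 UMIs per 10000 and Irf8 at 12.6, 16.7, 4.41, 0.590 and 4 over the PBS mice. With all mice none of the 5 was called, and Prf1 was the 1 gene of these 4 lists that passed. In the 13 fitted of 15 stress and dissociation genes none passed, with 12 above 0 and a median of 1.34 in IL10/2-Trikine and 1.27 in mono-IL10 against PBS mouse 2. With all mice the stress medians were 0.11 and -0.04, with 7 of 14 genes above 0 in each. No gene passed in any of these comparisons among the 31 fitted of 44 S phase genes, the 39 of 54 G2M genes, the 16 of 25 NK receptor genes outside the rule, the 11 of 24 T cell genes outside it, or the lists for cytokines, cytokine receptors, STAT feedback, homing, interferon response, glycolysis and stress. The interferon response list had 4 of its 20 genes fitted and does not hold Ifitm2, which was at -2.60 on the log2 scale in IL10/2-Trikine against PBS mouse 2. Granzymes varied widely between mice of a group. Gzmc ranged from 7.67 to 94.6 UMIs per 10000 in PBS, 39.8 to 181.2 in mono-IL10 and 23.4 to 93.3 in IL10/2-Trikine, and Gzmb from 0.841 to 21.8, 2.79 to 26.0 and 6.05 to 30.2. Il2rb was steadier, at 7.67 to 13.4, 5.88 to 12.7 and 10.2 to 12.4. Socs3, a feedback inhibitor induced by STAT3, was at 0 in all 5 PBS mice, at 1.26, 5.58, 0, 0 and 1.37 in mono-IL10 and at 1.39, 0.954, 0.755, 0 and 0.280 in IL10/2-Trikine, and none of these genes passed the test.

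The receptor genes of the 2 cytokines were seen unequally, with Il2rb in 95.7% of the NK-like cells, Il2rg in 55.6%, Il10rb in 11.7% and Il10ra in 4.32%.

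A last fit asked whether a treatment difference was another in the NK-like cells than in the other Cycling_T cells of the same mice, with the mouse as a block. Of 5921 genes, 2 (0.0338%) passed against mono-IL10 and both encode chemokines. Ccl5 stood at 50.9, 45.7, 97.2, 80.4 and 48.7 UMIs per 10000 in the other Cycling_T cells of the mono-IL10 mice and at 13.9, 7.43, 1.86, 24.2 and 34.4 in those of the IL10/2-Trikine mice. In the NK-like cells it stood at 0, 0, 0, 5.86 and 0 in mono-IL10 and at 1.79, 3.82, 2.26, 3.89 and 21.3 in IL10/2-Trikine. All 5 mono-IL10 mice are listed, but only 3 entered the fit, since mice 2 and 3 held 2 and 1 NK-like cells. In the other Cycling_T cells every IL10/2-Trikine mouse lay below every mono-IL10 mouse, and in the NK-like cells 4 of 5 mono-IL10 mice lay below every IL10/2-Trikine mouse. The difference of the differences was 4.04 ± 0.515 (SE; edgeR adjusted p 5.26e-11) on the log2 scale, beside a median of 0.53 over all genes. Ccl4 gave 3.60 ± 0.752 (SE; edgeR adjusted p 0.00785), with 1.36 to 19.3 UMIs per 10000 in the NK-like cells of IL10/2-Trikine and 0 to 2.52 in those of mono-IL10. In the other Cycling_T cells Ccl4 stood at 0 to 3.23 in IL10/2-Trikine and 1.16 to 5.41 in mono-IL10, so the groups overlapped in both kinds of cell. In the other Cycling_T cells Cd8b1 was seen in 85.3% for mono-IL10 and 37.0% for IL10/2-Trikine (57.8% and 26.1% with each cell thinned), and Themis, a T cell signaling gene, in 82.4% and 43.5%. Their part in the Ccl5 and Ccl4 results was not tested.

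Against PBS the fit held 1 PBS mouse, so its values describe that mouse and not the group. Of 5921 genes 4 (0.0676%) were past the threshold, Ccl5 (3.37 on the log2 scale), Ccl4 and Cxcl2 on the higher side (0.0507%) and Ifitm1 on the lower (0.0169%). Those of Ccl4, Cxcl2 and Ifitm1 rest on levels of 0 in the single PBS mouse: its NK-like cells held no UMI of Ccl4 or Cxcl2, while its other Cycling_T cells held Cxcl2 at 40.5 UMIs per 10000, and its other Cycling_T cells held no UMI of Ifitm1. The median over all genes was 0.18 in this comparison.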

How the data were processed

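CD45+ tumor-infiltrating cells were profiled with 10x 5' gene expression and hashtag libraries, 1 of each per treatment. The authors aligned reads to GRCm39 with Cell Ranger and deposited raw UMI counts for all called barcodes, together with a table of annotated cells that gives cluster, mouse and the percent of mitochondrial UMIs. Per the study's methods, cells under 1000 genes or over 10% mitochondrial UMIs were removed and the rest were clustered in Seurat 5.1.0 and named by hand. The submitters' notes also name DESeq2 1.46.0. The table lists 9942 cells, of which 7858 of a group with no sample here were not used.

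Counts of the annotated barcodes were read from the raw matrices. How doublets were treated before deposit is not given in the sources used here, and no doublet caller was run. Levels are UMIs per 10000 UMIs of summed cells. Shares per mouse were compared with two-sided exact permutation tests over mice (scipy 1.17.1), adjusted by Benjamini-Hochberg. A mouse needed at least 5 Cycling_T cells for a share of that cluster. Expression was tested with edgeR 4.0.16 (quasi-likelihood, TMM, robust) on counts summed per mouse, over genes with at least 20 UMIs, and a call is an adjusted p of at most 0.05. The fit of the difference between kinds took mice with at least 3 cells of each. DESeq2 1.42.0, other size factors, filters, selection rules, thinning and leaving out each mouse were alternatives. Fits were run on simulated data with the same spread between mice for every gene, so they were not tested at the spread of genes such as Gzmd. Named genes are up to 10 called in each direction with the smallest p, or the 5 with the smallest p where fewer than 5 were called, list members as counts with examples, the genes called with all mice or between kinds, and genes with the highest ratios between kinds. The rule, members and lists were chosen with earlier results of these data known. p-values measure the spread between mice of 1 library per treatment, and intervals and floors cover counting error only. No sequence is shown, as the reference given was of another build. Some genes that met the naming rule are not reported here.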

Additional observations from a re-analysis of the deposited data

Results flagged for a closer look

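In 60 groups of 4 or 5 mice, 10 had a highest or lowest mouse whose gap to the next, over the range of the group, was above Dixon's 95% critical value. Chance gives about 1 in 20, but several of these genes were named for a call against 1 PBS mouse, so the count cannot be read against that share. For Gzmd the highest mouse among the PBS mice was at 17.9 UMIs per 10000, among the mono-IL10 mice at 28.8 and among the IL10/2-Trikine mice at 0.432. For Gzme it was at 8.60 in PBS and 23.1 in mono-IL10. For H2-Eb1 the highest PBS mouse was at 3.34 and for Sqstm1 at 4.72, with the next at 1. For Gzmd in PBS and IL10/2-Trikine, and for Gzme and H2-Eb1 in PBS, all other mice were at 0, so any UMI in 1 mouse meets this rule. For Emb the lowest IL10/2-Trikine mouse was at 4.15, with the next at 6.91. For Cdk8 the lowest PBS mouse was at 2.999, with the next at 8.85, and the highest mono-IL10 mouse at 19.3, with the next at 6.07. The mono-IL10 values of Gzmd, Gzme and Cdk8 are those of mouse 3, with 1 NK-like cell.

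In 2 cases the treatment difference was another in the NK-like than in the other Cycling_T cells, by edgeR's quasi-likelihood test of the difference itself. The adjusted p was 5.26e-11 for Ccl5 and 0.00785 for Ccl4 against mono-IL10. The same model against PBS held 1 PBS mouse, so its values, 2.55e-06 for Cxcl2, 0.000439 for Ifitm1, 0.00971 for Ccl4 and 0.0266 for Ccl5, describe that mouse and show no difference between groups.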

How the results depend on the processing

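Among the shares of the Cycling_T cluster, IL10/2-Trikine lay 16.7 points above PBS without Tyrobp and Fcer1g in the NK sum (adjusted p 0.171, exact permutation). With cells of at least 2000 genes it was 27.9 points from PBS and 52.5 from mono-IL10, over too few mice for any outcome to pass the threshold. As a share of annotated cells the differences were then 3.46 and 16.3 points, and neither passed. Mono-IL10 fell past the threshold against PBS with Trbc1 in the T cell sum (-18.3 points) and with thinning (-17.3 points, and -1.58 of annotated cells). The share among NK-type cycling cells turned to 13.5 points against PBS when 2 or more NK UMIs and 0 T cell UMIs were required. The log2 of the median UMIs differed by -1.58 from PBS.

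With 1 mouse left out, the share of the cluster in IL10/2-Trikine lay 32.6 to 39.3 points above PBS and 46.9 to 53.5 above mono-IL10, and the share of annotated cells 10.5 to 12.9 and 11.9 to 14.4 points above. The adjusted p missed the threshold without any IL10/2-Trikine mouse (0.0529 against PBS, exact permutation), where the unadjusted p of 0.0159 is the smallest possible, and likewise against mono-IL10 without mono-IL10 mouse 1, 2, 4 or 5. Mono-IL10 against PBS ranged from -17.0 to -11.5 and from -1.96 to -0.840 points. The share among NK-type cycling cells ranged from -18.4 to 6.57 against PBS (6.57 without PBS mouse 2), from -2.16 to 12.3 against mono-IL10 (-2.16 without mono-IL10 mouse 2 and -1.21 without mouse 5) and from -23.0 to 1.96 in mono-IL10 against PBS (1.96 without PBS mouse 2). Log2 UMIs per cell ranged from -1.44 to -1.38, -1.34 to -1.15 and -0.256 to -0.0612.

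The genes called numbered 3 for IL10/2-Trikine against PBS, 1 against mono-IL10 and 1 for mono-IL10 against PBS with DESeq2, and 0, 2 and 0 of 908 genes with thinning in edgeR, where 49, 63 and 42 had an unadjusted p under 0.05. Against mono-IL10 they numbered 4 without Tyrobp and Fcer1g, 4 with genes of at least 1 or 5 UMIs, 5 with all mice (also 5 without the mast cell protease cell) and 4 with mice of at least 5 cells. Mono-IL10 against PBS gave 7 and 8 with genes of at least 1 and 5 UMIs and 2 with all mice. With 1 mouse left out the counts were 5 to 13, 5 to 17 and 3 to 8, the highest without mono-IL10 mouse 4. They were 10 against PBS without IL10/2-Trikine mouse 4, and 5 against mono-IL10 without mono-IL10 mouse 1 or IL10/2-Trikine mouse 5. Thinned, Tnfrsf9 turned to 0.42 and Ms4a4b to 0.062, and with all mice Gzmd and Gzme turned to 0.17 and 0.70 in mono-IL10 against PBS (0.10 and 0.64 without the mast cell protease cell). The fit of the difference between kinds called 8 genes against PBS with RLE size factors and 6 against mono-IL10 with genes of at least 5 UMIs. The cause of these changes was not tested.

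Treatments were compared without pairing, since the mouse numbers are hashtags used again in each library for other mice. Expression models of cells with 2 or more NK UMIs and 0 T cell UMIs could not be fitted. The counts rest on 1 to 21 cells per mouse, 1 PBS mouse has at least 3, and low genes are near the limit of depth.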

Other observations

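Over the 3 libraries together, several genes not tied to the cell cycle stood higher in the NK-like than in the Cycling_NK cells. Ifitm1, Ifitm2 and Ifitm3, interferon-induced membrane proteins, were seen in 21.0%, 43.2% and 27.2% of the NK-like cells and in 13.2%, 22.1% and 13.2% of the Cycling_NK cells. Tmem176b, a membrane channel gene of myeloid and innate lymphoid cells, was seen in 22.2% against 4.41%, and Sema6d in 28.4% against 8.82%. On the lower side, Ccnd2 (cyclin D2) was seen in 23.5% of the NK-like and 42.6% of the Cycling_NK cells, and Adamts14 in 15.4% and 41.2%. These kinds were divided by clustering on the same genes, so the values are descriptions with no test.

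Cycling_NK cells made up 4.48%, 5.97%, 17.4%, 10.4% and 5.71% of the annotated cells of the IL10/2-Trikine mice. They made up 0%, 0%, 2.82%, 0% and 2.44% of those of the PBS mice and 0.568%, 2.61%, 0%, 0.465% and 4.26% of those of the mono-IL10 mice. Every IL10/2-Trikine mouse lay above every other mouse, but narrowly. The lowest of them held 3 Cycling_NK cells of 67 annotated cells, and mono-IL10 mouse 5 held 4 of 94. No test was made.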
